A study of Mus musculus with 6 samples.

Results

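The genes described here are the chains of the major histocompatibility complex (MHC) class II molecule and the genes that load it and switch it on: H2-Aa, H2-Ab1, H2-Eb1, H2-DMa, H2-DMb1, H2-Oa, Cd74, Ciita, Rfx5 and Ifi30. They were taken by symbol from the count table, where each of the 10 symbols had 1 row among 54532 genes, and 24135 of all rows had at least 1 count. RNA was sequenced from cultured DC2.4 cells, a mouse line of dendritic cells that the labels call immature and also describe as bone marrow derived. Both groups carried the vector ptt5, were passaged 48 h after transfection and were then put under selection: 3 samples had the empty vector and 3 were labelled as overexpressing Vdbp, the vitamin D-binding protein. The labels do not say whether a group was 1 clone or a selected pool, or whether its 3 samples came from separate cultures, so the spread behind each p-value is that between these samples and may be technical.

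MHC class II molecules are cell surface dimers that show peptides from engulfed protein to CD4+ T cells, and dendritic cells are known for carrying them. The A molecule pairs the H2-Aa and H2-Ab1 chains, and H2-Eb1 is the beta chain of the E molecule. In the endoplasmic reticulum the chains bind the invariant chain CD74, which blocks the groove and steers the complex to endosomes. There the thiol reductase made from Ifi30 (GILT) opens disulfide bonds in antigens, H2-DM (H2-DMa with H2-DMb1) exchanges the last piece of CD74 for a peptide, and H2-DO (H2-Oa with H2-Ob) restrains H2-DM. The promoters of the chains and of their partners in loading hold an X box, bound by the RFX complex of RFX5, RFXAP and RFXANK, and a Y box, bound by NF-Y. CIITA docks on these proteins, does not bind DNA itself and is the factor whose presence usually decides whether a cell makes class II.

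Promoter sequence is shown because genes that hold these boxes stood at very different levels. RefSeq windows on GRCm38.p6, which run from 250 bases before to 50 bases after a gene's start, were found for 7 of the 10 members (8 windows, with 2 for H2-DMa). H2-Ab1, Cd74 and Ciita had no window. The Y box core ATTGG was searched on both strands, as was the X1 box, the best conserved part of the X box, whose letters are those in capitals ahead of the Y box below. The longer form TGATTGG, which contains ATTGG, was added after the windows had been read. In the lines below capitals mark TGATTGG and the X1 letters, and each run reads 5′ to 3′ on the strand of the gene. H2-Aa is chr17:34287824-34287953 on the minus strand, and H2-Eb1 is chr17:34305737-34305866 on the plus strand; both end at the base before the RefSeq start. H2-Oa is chr17:34092219-34092340 on the plus strand and ends with its Y box. H2-DMb1 is chr17:34153091-34153120 on the plus strand, cut short around the X1 letters because GENCODE M21 places an exon there.
H2-Aa: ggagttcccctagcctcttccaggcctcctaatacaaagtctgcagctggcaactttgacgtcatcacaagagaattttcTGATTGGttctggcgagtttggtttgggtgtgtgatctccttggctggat
H2-Eb1: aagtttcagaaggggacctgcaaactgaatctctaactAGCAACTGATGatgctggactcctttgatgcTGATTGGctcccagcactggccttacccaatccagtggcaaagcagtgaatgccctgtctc
H2-DMb1: tacctAGTAACTGATGatgctaggctgatt
H2-Oa: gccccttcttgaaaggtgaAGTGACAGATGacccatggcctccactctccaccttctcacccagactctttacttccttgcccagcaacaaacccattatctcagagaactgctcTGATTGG

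ATTGG was present in windows of 6 of the 7 members, all but Ifi30, and in 37.4% of all 32851 RefSeq windows. TGATTGG was present in 5 of them (H2-Aa, H2-Eb1, H2-DMb1, H2-Oa and Rfx5, where it lay on the opposite strand) and in 7.82% of all windows. The X1 letters were present in 3 members (H2-Eb1, H2-DMb1 and H2-Oa) and in 0.968% of all windows. Only 1 pattern of letters was searched for this box, so a window without a match, such as that of H2-Aa, may still hold an X box. In H2-Eb1 the X1 letters began at position −92 from the start and ATTGG at −59, 33 bases apart. In H2-DMb1 they began at −95 and −61, 34 bases apart. The deposited table starts H2-DMb1 119 bases before this RefSeq start, and by that start both matches lie inside the gene. Starts 30 to 36 bases apart, a range set after these 2 windows had been read, occurred in 4 of all windows (0.0122%), those of H2-Eb1, H2-DMb1, H2-Eb2 and Gm31108. In H2-Oa the X1 letters lay further off, at −141 with ATTGG at −43. The 2 windows of H2-DMa lay 12350 and 9664 bases before the start that the deposited table gives for the gene. Only the nearer window held ATTGG, and H2-DMa is counted above through it. The start in the deposited table had no window. A match is a match of letters in the reference sequence and not a measured site, and H2-Eb1 and H2-DMb1, which share the closely spaced pair, stood far apart in level.

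Library totals lay between 15563800 and 16710975 counts, and 12844 genes had enough counts to be tested. Gc, the gene of Vdbp, had 0 counts in all 6 libraries, so a direction below is that of libraries labelled Vdbp relative to those with empty vector, and the overexpression itself was not seen in these counts. The dendritic cell label was checked on 12 markers, of which 5 passed the count filter (Itgax, Zbtb46, Irf8, Sirpa and Spi1). Flt3, Xcr1, Clec9a, Batf3, Ccr7 and Irf4 had group means of at most 0.364 CPM (counts scaled to library size), and Cd209a had 0 counts. Macrophage markers had 7 of 8 genes tested. Their summed level was 3077 to 3587 FPKM (counts scaled by gene length and library size) in the vector controls and 2902 to 3128 under the Vdbp label. The 12 dendritic cell markers summed to 233 to 258 FPKM in the vector controls and 250 to 297 FPKM under the Vdbp label. Sirpa was the most abundant tested gene among them, at 591 ± 32.8 and 611 ± 47.8 CPM. The macrophage markers Lyz2 (1964 ± 199 and 1583 ± 57.3 CPM, SD, n = 3 each) and Adgre1 (672 ± 16.0 and 583 ± 28.8 CPM) were lower in every library labelled Vdbp, with adjusted p of 0.781 each in edgeR's quasi-likelihood test. Of the B cell markers, which would mark another class II-bearing cell, Ms4a1 and Ebf1 had 0 counts, and 1 of 7 was tested: Pax5, a B cell transcription factor, at 2.51 ± 0.34 CPM in the vector controls and 2.08 ± 0.23 CPM in the libraries labelled Vdbp. The 7 genes summed to 0.330 to 0.715 FPKM in the vector controls and 0.328 to 0.442 under the Vdbp label. T cell, fibroblast and epithelial markers had 1 of 7, 1 of 6 and 0 of 5 genes tested, and no list in this check had a gene past the adjusted threshold.

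The class II chains and Ciita were at or near 0 in both groups, while Cd74 and Ifi30 were among the most abundant messages of the cells. H2-Aa, H2-Ab1 and H2-Eb1 together had 9 counts in the empty-vector libraries and 8 in the libraries labelled Vdbp. Per length, their mean summed level was 0.130 FPKM, and that of Cd74 was 131 FPKM. Ciita had 8 counts in all. In bulk libraries a low level in every cell and a high level in a few cells cannot be told apart, which holds for each gene below.

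H2-Aa, the alpha chain of the A molecule (ENSMUSG00000036594, chromosome 17, 34282744 to 34287827), was uncounted in the empty-vector group (0 counts in 3 of 3 libraries) and had 0, 0 and 1 counts in Vdbp replicates 1, 2 and 3. H2-Ab1, its beta chain (ENSMUSG00000073421, chromosome 17, 34263209 to 34269418), was likewise at 0 in each empty-vector library, and had 0, 4 and 0 counts under the Vdbp label. For both genes a sum of 0 counts allowed a level of up to 0.0603 CPM over the empty-vector group by a floor of 3 counts. The upper end of the 95% exact Poisson interval, the measure used for the genes that follow, was 0.0742 CPM. These bounds, like the intervals that follow, cover counting error only. H2-Eb1 (ENSMUSG00000060586, chromosome 17, 34305877 to 34316199) had 0, 3 and 6 counts in the vector controls and 1, 2 and 0 under the Vdbp label. Its level over the group was 0.181 CPM (95% exact Poisson interval 0.0827 to 0.344) in the vector controls and 0.0619 CPM (0.0128 to 0.181) under the Vdbp label. The groups overlapped for all 3 chains. The two-sided exact permutation p over the 6 libraries was 1, 1 and 0.5 for H2-Aa, H2-Ab1 and H2-Eb1, in a design of 3 against 3 whose smallest possible p is 0.1.

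Ciita, the class II transactivator (ENSMUSG00000022504, chromosome 16, 10480059 to 10528418), had 3, 0 and 0 counts in replicates 1, 2 and 3 of the vector controls and 0, 0 and 5 in those labelled Vdbp. Its counts thus came from 1 library in each group. The group level was 0.0603 CPM (95% exact Poisson interval 0.0124 to 0.176) in the vector controls and 0.103 CPM (0.0335 to 0.241) under the Vdbp label, with an exact permutation p of 1. The gene overlaps Dexi on the opposite strand, which had 745 counts. Whether the authors' counting used strand is not given in the sources used here, so these 8 counts cannot be assigned to Ciita with certainty. H2-Oa, Cd74, Rfx5 and Ifi30 also overlap other genes, which had 6 to 108 counts against 490 to 45919 for the member. The upper bounds of the group levels of Ciita and the 3 chains were at most 0.344 CPM (H2-Eb1), under the levels of H2-DMa and H2-Oa, and a difference within these bounds was not detectable at this depth.

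**Figure D1:**
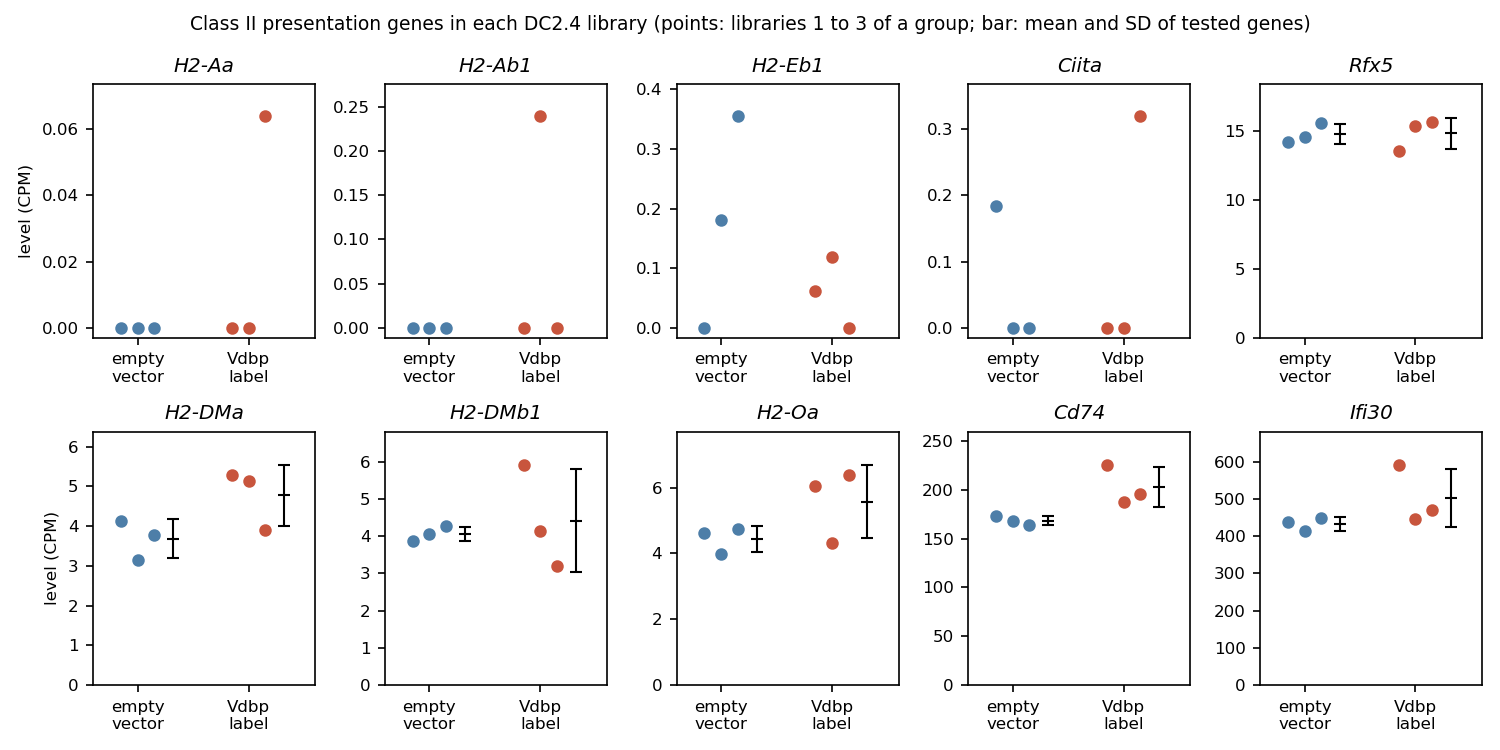
Level in CPM of the 10 genes in each library, with 1 point per library, and mean and SD (n = 3) beside the points of the 6 tested genes; each panel has its own linear axis. H2-Aa, H2-Ab1, H2-Eb1 and Ciita lay under 0.36 CPM in every library, and Cd74 was the only member whose groups did not overlap.

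Rfx5, a subunit of the RFX complex, was present in libraries where Ciita was near 0. It (ENSMUSG00000005774, chromosome 3, 94954075 to 94961561) measured 14.2, 14.6 and 15.56 CPM in replicates 1, 2 and 3 of the vector controls and 13.6, 15.4 and 15.7 CPM in those labelled Vdbp. The groups overlapped, with Vdbp replicate 1 the lowest library of the 6. The log2 fold change was 0.01 (SE 0.13), and its 95% interval ran from 0.831-fold to 1.21-fold. Its adjusted p in edgeR was 0.987.

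The 2 chains of H2-DM were counted at a few CPM in every library. H2-DMa, the alpha chain (ENSMUSG00000037649, chromosome 17, 34135182 to 34139101), measured 4.12, 3.14 and 3.79 CPM in the vector controls and 5.29, 5.14 and 3.90 CPM under the Vdbp label. Vdbp replicates 1 and 2 lay above every empty-vector library, and Vdbp replicate 3 lay below empty-vector replicate 1. The log2 fold change was 0.38 (SE 0.20), with a 95% interval from 0.953-fold to 1.77-fold and an adjusted p of 0.781 in edgeR. H2-DMb1, the beta chain (ENSMUSG00000079547, chromosome 17, 34153072 to 34160230), measured 3.87, 4.05 and 4.26 CPM in the vector controls and 5.91, 4.12 and 3.19 CPM under the Vdbp label. The libraries labelled Vdbp held both the highest and the lowest value. The log2 fold change was 0.12 (SE 0.23, 95% interval from 0.765-fold to 1.54-fold, adjusted p 0.879 in edgeR), and it was −0.14 without Vdbp replicate 1.

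The level of H2-DMb1 is uncertain because H2-DMb2, a second beta chain gene next to it, is a close copy. The longest protein-coding transcripts of the pair in GENCODE M21 were 87.3% identical over 1157 aligned positions, with a longest identical run of 221 bases, and reads from such a run could be assigned to either gene. H2-DMb2 had 2, 1 and 1 counts in the vector controls and 4, 0 and 0 under the Vdbp label. Per length, the H2-DMa to H2-DMb1 ratio lay between 0.702 and 1.13 over the 6 libraries, with the same uncertainty in H2-DMb1.

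H2-Oa, the alpha chain of H2-DO, was counted without its partner. H2-Oa (ENSMUSG00000024334, chromosome 17, 34092340 to 34095234) measured 4.61, 3.99 and 4.73 CPM in the vector controls and 6.04, 4.30 and 6.39 CPM under the Vdbp label. Vdbp replicates 1 and 3 lay above the empty-vector libraries, and Vdbp replicate 2 lay among them. The log2 fold change was 0.33 (SE 0.20), with a 95% interval from 0.927-fold to 1.69-fold and an adjusted p of 0.781 in edgeR. H2-Ob, the beta chain of H2-DO, had 0 counts in all 6 libraries, which allows up to 0.177 to 0.192 CPM per library by the floor of 3 counts. H2-Eb2 and H2-Ea-ps, the table's row for the E alpha chain, also had 0 counts throughout.

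**Figure D2:**
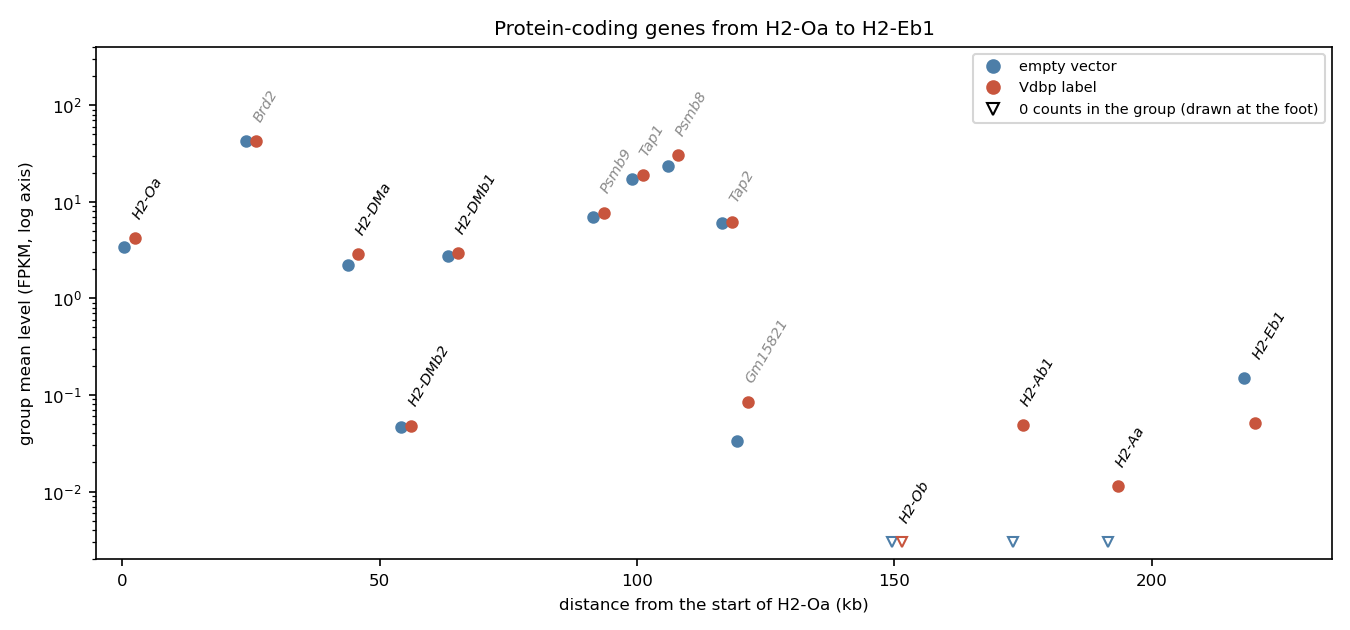
Group mean level in FPKM (log axis) of the 14 protein-coding genes between H2-Oa and H2-Eb1, by distance in kb from the start of H2-Oa, with open triangles for a group with 0 counts. The genes from H2-Oa to Tap2 other than H2-DMb2 and Gm15821, which lies within Tap2, lay at 2.23 FPKM or more, and H2-Ob, H2-Ab1, H2-Aa and H2-Eb1 at 0.1499 FPKM or less.

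Levels differed along the class II region itself. The 224 kb of chromosome 17 from H2-Oa to H2-Eb1 (34092340 to 34316199) held 14 protein-coding genes, of which 8 were tested. On the side of H2-Oa, Brd2, a chromatin reader, averaged 42.2 ± 2.24 FPKM in the vector controls and 42.8 ± 2.08 FPKM under the Vdbp label. Genes of the class I pathway in the middle were present too: the immunoproteasome subunit Psmb8 averaged 23.2 ± 5.64 and 30.4 ± 5.48 FPKM, and the peptide transporter subunit Tap1 17.2 ± 1.94 and 18.8 ± 3.30 FPKM. H2-Ob, H2-Ab1, H2-Aa and H2-Eb1, the 4 class II genes at the far side, were all under the filter. The plot of levels along the region shows this step after Tap2. None of the 8 tested genes passed edgeR's adjusted threshold.

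Cd74 was the member with the clearest separation between the groups, and it did not pass the test over all genes. Cd74 (ENSMUSG00000024610), the invariant chain, lies outside the complex, on chromosome 18. It measured 173.5, 168 and 164 CPM in replicates 1, 2 and 3 of the vector controls and 226, 187 and 195.5 CPM in those labelled Vdbp. Every library labelled Vdbp lay above every empty-vector library, and the group means were 168 ± 4.72 and 203 ± 20.3 CPM (SD, n = 3 each). The log2 fold change was 0.27 (SE 0.10), with a 95% interval from 1.04-fold to 1.39-fold. The unadjusted p was 0.0172 and the adjusted p 0.781 in edgeR. Without Vdbp replicate 1 the log2 fold change was 0.19, and with an offset for gene length and GC content it was 0.13, with a 95% interval from −0.02 to 0.29 and an adjusted p of 0.612.

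Ifi30, whose product GILT is known to be induced by interferon-gamma, was the most abundant member. Ifi30 (ENSMUSG00000031838, chromosome 8, 70762774 to 70766663), which the table lists as a processed transcript, measured 438, 413 and 449 CPM in the vector controls and 592, 447 and 470.3 CPM under the Vdbp label. Vdbp replicate 1 stood above the others, Vdbp replicate 3 lay above every empty-vector library, and Vdbp replicate 2 lay below empty-vector replicate 3. The log2 fold change was 0.22 (SE 0.11), with a 95% interval from 0.977-fold to 1.38-fold and an adjusted p of 0.781 in edgeR. Without Vdbp replicate 1 it was 0.08, and with the offset for gene length and GC content 0.14.

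Per length, the order of the members was the same at its top in every library and unresolved at its foot. Over the 6 libraries Ifi30 averaged 475 FPKM, above 99.7% of the 24135 genes with counts, and Cd74 131 FPKM, above 98.5% of them. Ifi30 was 3.43 to 3.93 times as high as Cd74 within a library. H2-Oa followed at 3.79 FPKM and was above H2-DMb1 (2.84 FPKM) in 6 of 6 libraries. H2-DMb1, Rfx5 (2.68 FPKM) and H2-DMa (2.56 FPKM) exchanged places: H2-DMb1 was above Rfx5 in 4 of 6 libraries and Rfx5 above H2-DMa in 4 of 6. H2-Eb1 (0.1004 FPKM), H2-Ab1 (0.0243 FPKM), Ciita (0.00878 FPKM) and H2-Aa (0.00566 FPKM) came last, with 0 counts in 2 to 5 of the 6 libraries each.

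Of the 10 members 6 passed the count filter, and edgeR called none of them at an adjusted p under 0.05, as it called 0% of all tested genes. At an unadjusted p under 0.05 there was 1 member, Cd74, against 5.35% of all tested genes. DESeq2 and limma-voom also called 0 members. Groups that did not overlap occurred for 1 member (Cd74, higher), against 5.26% of all tested genes higher and 5.61% lower. All 6 log2 fold changes were above 0, as were 48.7% of those of all tested genes. The members that could be tested are those counted in these cells, and the 6 signs say nothing of the chains and Ciita.

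**Figure D3:**
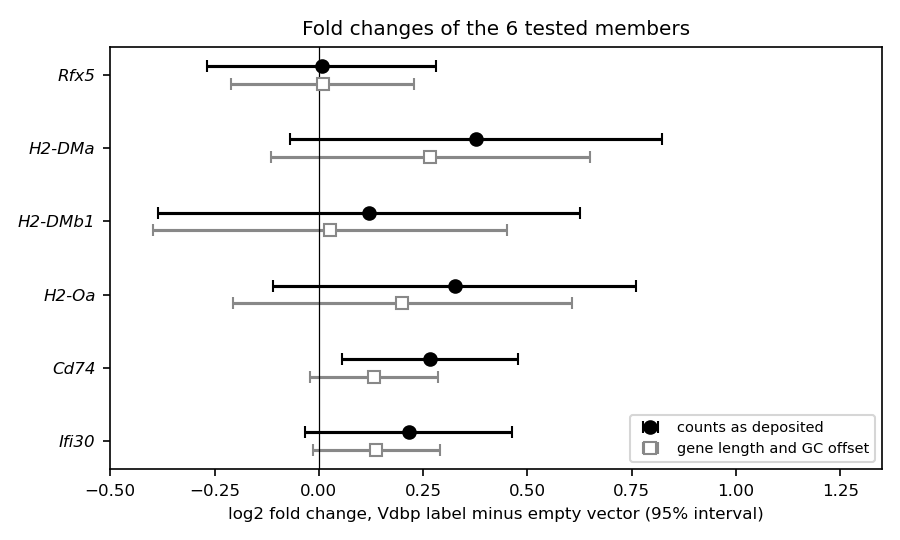
Log2 fold change with its 95% interval for the 6 tested members, from the counts as deposited (filled circles) and with an offset for gene length and GC content (open squares). With the deposited counts the interval of Cd74 alone lay above 0, and with the offset each of the 6 intervals included 0.

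Extreme values of several members fell in 1 library, as did those of many of all tested genes. Vdbp replicate 1 held the highest value of H2-DMa, H2-DMb1, Cd74 and Ifi30, 4 of the 6 tested members, and the lowest of Rfx5; it was the highest library for 32.8% of all tested genes and the lowest for 32.3%. Empty-vector replicate 2 held the lowest value of H2-DMa, H2-Oa and Ifi30; it was the lowest library for 24.5% of all tested genes and the highest for 27.5%. These libraries also stood at opposite ends of a dependence on base composition. Across genes, Spearman's rho of GC content with the log2 deviation from the gene's mean was 0.74 in Vdbp replicate 1, −0.63 in empty-vector replicate 2 and −0.40 to 0.07 in the other 4; the part of this dependence in the members' differences was not tested beyond the offset given here. The GC content of the longest transcript was 53.4% to 56.6% for H2-DMa, H2-DMb1, H2-Oa, Cd74 and Ifi30 and 49.6% for Rfx5, against a median of 49.5% over tested genes. The trend fitted over all genes on length and GC content put the first 5 genes 0.15 to 0.25 log2 units up in Vdbp replicate 1, and Rfx5 at 0.00.

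After removal of that trend the deviations of Cd74 were 0.04, −0.00 and 0.16 in Vdbp replicates 1, 2 and 3, and those in empty-vector replicates 1, 2 and 3 were −0.04, 0.03 and −0.19. Vdbp replicate 2 then lay below empty-vector replicate 2, so the groups overlapped. For Ifi30 they were 0.20, −0.07 and 0.07 under the Vdbp label and −0.07, −0.06 and −0.07 with empty vector. H2-DMb1 kept its split within the Vdbp label, at 0.29, −0.02 and −0.28. The fitted log2 fold changes with the offset were 0.27 for H2-DMa, 0.20 for H2-Oa and 0.03 for H2-DMb1.

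**Figure D4:**
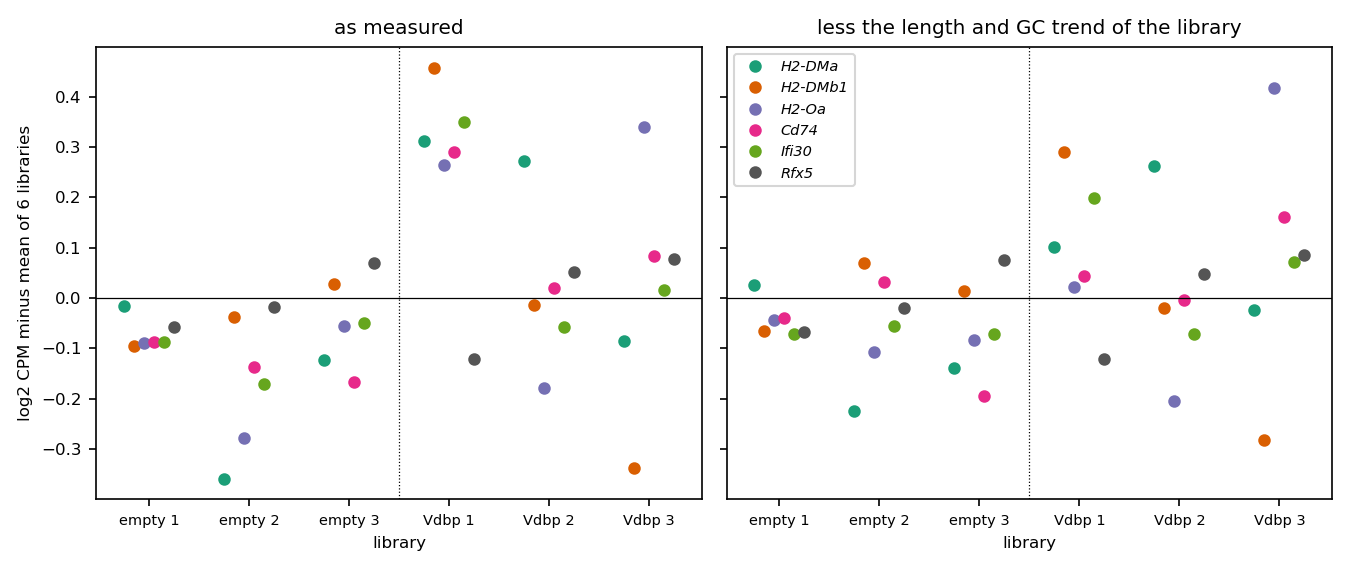
Deviation of each tested member from its mean over the 6 libraries, in log2 CPM, by library, as measured (left) and less the trend on gene length and GC content of that library (right). As measured, 5 of the 6 members lay 0.26 or more above their mean in Vdbp replicate 1; less the trend, 2 of them did so by 0.19 or more.

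The genes nearest to Cd74 in pattern lay outside the class II lists. Nearness was the root mean square difference of log2 CPM, each gene centred on its mean, over the 6 libraries, among 9549 protein-coding genes with a mean of at least 5 CPM. The nearest 5 were Elovl1, a fatty acid elongase (0.021 log2 units), Lss, a sterol cyclase (0.027), the ribosomal protein Rpl10a (0.028), beta-actin, Actb (0.029), and Fbxl15, an F-box protein (0.033), where the median gene was at 0.19. Elovl1, for example, measured 169.5, 161 and 162 CPM in the vector controls and 224, 178 and 188.5 CPM under the Vdbp label. Of the other members Ifi30 was at 0.069, with 1.39% of the compared genes nearer to Cd74. All these distances used deviations as measured, before removal of the trend on gene length and GC content. Nearness after its removal was not tested. H2-Oa, H2-DMa, Rfx5 and H2-DMb1 were at 0.15 to 0.21, with 31.6% to 54.7% of genes nearer. H2-DMa and H2-DMb1 had group means under the 5 CPM required of the compared genes. With 50 to 100 counts per library for H2-Oa, H2-DMa and H2-DMb1, counting error adds to their distances. These distances therefore do not show whether the 3 genes follow Cd74.

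Messages for the proteins that CIITA needs at the promoter were all present. All 6 genes of this list were tested: Rfxap, Rfxank, the NF-Y subunits Nfya, Nfyb and Nfyc, and Creb1, which can bind next to the X box. Nfya had the highest level, at 84.8 ± 4.38 CPM in the vector controls and 85.1 ± 1.75 CPM under the Vdbp label. Rfxap averaged 8.59 ± 1.38 and 8.32 ± 0.77 CPM, and Rfxank 8.07 ± 0.92 and 8.93 ± 1.34 CPM. None passed the adjusted threshold, 3 of 6 log2 fold changes were above 0, and the median was −0.02, where the median of all tested genes was −0.01.

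Genes on the route from interferon-gamma to Ciita were present as well. All 10 were tested and 0 passed, with a median log2 fold change of −0.05. Jak1, the kinase with the highest level of the list, averaged 298 ± 17.4 and 264 ± 25.1 CPM and was lower in every library labelled Vdbp (log2 fold change −0.18, adjusted p 0.781 in edgeR). Irf1, a direct activator of a Ciita promoter, averaged 18.1 ± 0.85 and 18.7 ± 2.67 CPM. The receptor chains Ifngr1 (25.04 ± 1.47 and 23.9 ± 1.24 CPM) and Ifngr2 (86.6 ± 4.65 and 83.7 ± 3.01 CPM) had group means closer together than either SD. Of 7 genes known to repress Ciita or linked to its silencing, all were tested and 0 passed, with a median of −0.08. The DNA methyltransferase Dnmt1 had the highest level (423 ± 23.3 and 435 ± 36.1 CPM), and Prdm1, which represses Ciita in plasma cells, was at 1.57 ± 0.57 and 1.29 ± 0.44 CPM.

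Proteases that cut CD74 and antigens were abundant. Of 10 genes of class II processing and turnover in the table, 9 were tested and 0 passed, 3 of the 9 log2 fold changes were above 0, and the median was −0.10. Ctsb, the protease cathepsin B, had the highest level (4551 ± 262 and 4243 ± 245.0 CPM). Ctss, the cathepsin that makes the last cut in CD74 in dendritic cells, measured 585, 640.0 and 565 CPM in the vector controls and 455, 533 and 517 CPM under the Vdbp label. It was lower in every library labelled Vdbp (log2 fold change −0.25, SE 0.10, unadjusted p 0.0274, adjusted p 0.781 in edgeR). With the offset for gene length and GC content the log2 fold change of Ctss was −0.20 (95% interval −0.32 to −0.07, adjusted p 0.482 in edgeR). March1, the ubiquitin ligase that removes class II from the surface of resting dendritic cells, was under the filter, with 3 to 11 counts per library.

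Of the partners of CD74 as a surface receptor, 3 of 5 were tested and 0 passed. Mif, its cytokine ligand, measured 432, 375 and 430 CPM in the vector controls and 622, 437 and 487 CPM under the Vdbp label. Every library labelled Vdbp lay above the empty-vector libraries, with Vdbp replicate 1 again the highest, and the log2 fold change of 0.32 (SE 0.13, adjusted p 0.781 in edgeR) became 0.10 with the offset for gene length and GC content. Cd44, the signalling partner, averaged 304.5 ± 23.6 and 290.1 ± 25.9 CPM. Over all 6 pathway lists 35 of 42 genes in the table were tested and 0 passed. Groups did not overlap for 1 gene that was higher (Mif) and 5 that were lower (Ctss, Ctsl, Jak1, Nfyb and Myc) of the 35, against 5.26% higher and 5.61% lower over all tested genes, and the median log2 fold change was −0.06.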

How the data were processed

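Messenger RNA libraries of 6 DC2.4 samples were analysed. The authors deposited unnormalised counts per Ensembl gene and an FPKM table, which was the counts divided by gene length and by 1 constant per library (largest relative gap 5.0e-12). The submitters' processing notes name HISAT2 and StringTie. Which tool counted, on which build and annotation, is not given in the sources used here. Of the gene identifiers 99.8% were in GENCODE M21 (GRCm38), of which 98.3% shared both coordinates with the deposited table, 5 of the 10 members among them. Positions are those of the deposited table.

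Counts were filtered with filterByExpr (minimum count 10, total 15, proportion 0.7), scaled by TMM and tested with edgeR 4.0.16 in R 4.3.3 (quasi-likelihood F test, group as the only term, two-sided, Benjamini-Hochberg over 12844 genes, threshold 0.05). The procedure was tested on simulated data. CPM use the TMM-adjusted library size, and FPKM compare levels between genes. Genes under the filter were given by counts. The length and GC offset was a smooth trend per library (mgcv 1.9.3), with GC content from the longest GENCODE transcript. Transcripts were aligned with Biopython 1.88, and exact permutation tests used SciPy 1.17.1. Replicate numbers were not used to pair the samples in the main fit, and the labels do not say whether they mark shared cultures. The members, lists and alternatives were chosen with earlier results of these data known. The naming rule took the 10 members, the most abundant tested gene of each pathway list, any pathway gene past the threshold, and the 5 genes nearest to Cd74. Other genes were named after their values were seen. Values of some list genes are not reported here.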

Additional observations from a re-analysis of the deposited data

How the results depend on the processing

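The counts of genes past the adjusted threshold, the fold changes of the 6 tested members and the medians of the lists were recomputed under 19 alternatives; other values were not. No member and no pathway gene passed the adjusted threshold in any of them, the RLE, upper-quartile and total-count scalings, DESeq2 1.42.0, limma-voom 3.58.1, limma on FPKM after log2 (pseudocount 1 or 0.1), the unfiltered fit and the filter of 1 CPM included. Over all genes edgeR called 0, DESeq2 4, edgeR without a filter on low counts 89, edgeR with the length and GC offset 2, and edgeR without empty-vector replicate 2 and Vdbp replicate 1 together 2. Leaving out 1 library at a time gave 0 to 22 calls, the 22 without empty-vector replicate 3. H2-DMa, H2-Oa, Cd74 and Ifi30 kept a log2 fold change above 0 in all 19, with Cd74 between 0.13 and 0.32. H2-DMb1 ranged from −0.14 without Vdbp replicate 1 to 0.30 without Vdbp replicate 3, and was −0.15 without empty-vector replicate 2 and Vdbp replicate 1 together, where H2-DMa was 0.19 and Ifi30 0.045. Rfx5 ranged from −0.031 to 0.071 when 1 library was left out and lay below 0 in 4 of those fits. The cause was not tested. Of the recomputed medians of the pathway lists 5, over 3 lists, moved by more than the spread between replicates, and all lay within −0.14 to 0.12. With the replicate number as a block 0 genes were called and Cd74 had a log2 fold change of 0.26. The deviations of same-numbered libraries from their group means correlated at 0.19, 0.07 and −0.32 across genes, and not every library correlated best with its own number. With 0 to 9 counts per group the depth could not resolve the chains or Ciita.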
